A study of Mus musculus with 43 samples.

Results

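Loss of Runx2 and loss of Runx1 from the adipocytes of mouse inguinal white fat were compared gene by gene, as the difference between the 2 knockout effects. An effect is the log2 change of a knockout against its own floxed control, so the difference is the Runx2 knockout effect minus the Runx1 knockout effect, and a positive value means that a gene stood higher after loss of Runx2 than after loss of Runx1, each relative to its control. The comparison used 12 of the 43 RNA-seq libraries of the series, in 4 of its 15 groups: 3 libraries each of Adipoq-cre:Runx2 KO fat, Runx2 flox control fat, Adipoq-cre:Runx1 KO fat and Runx1 flox control fat. Both controls carry the genotype label WT, and no age, sex or diet is given for these 12 samples. Every gene that passed a minimum of counts in both tables was a member, which gave 15310 of the 26264 genes listed. Adipoq-cre is switched on by the adiponectin promoter, so the deletion is directed to adipocytes, and stromal, vascular and immune cells of the same pad keep both genes. The labels do not say that the 3 libraries of a group came from separate animals, and p-values then measure only the spread between these libraries.

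RUNX1 and RUNX2 are transcription factors that share a DNA-binding Runt domain and the partner CBFB, and are best known as regulators of blood cell and of bone formation. In white fat, beige adipocytes are cells that take on brown fat properties under cold or adrenergic stimulation: beta-adrenergic receptors raise cAMP, and cAMP signalling induces the coactivator PGC-1alpha (Ppargc1a), the deiodinase Dio2 and the uncoupling protein UCP1. Insulin and fasting act on the same cells through insulin receptor substrates and FOXO1, and lactate acts on them through the receptor HCAR1, which restrains lipolysis.

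The 2 knockouts differed in 266 genes, 1.74% of those tested. Ppargc1a, Irf4, Slc25a25, Nr4a3, Irs2 and Sesn2 were higher after loss of Runx2 than after loss of Runx1, by 2.83 to 5.53 on the log2 scale; they were named because they passed the test and are not a list of 1 pathway. The receptors Hcar1 and Adrb3 were lower, at -5.24 and -2.77. Of 14 heat shock genes 5 were lower, where 0.627% of all genes were, and 4 had positive differences that did not pass. Of the genes named here as called, Hcar1 and Hsph1 kept the call under each of 21 other settings, and the others lost it under 2 to 15 of them. Ucp1 itself stood above its control in all 3 libraries of both knockouts and was not called different between them.

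Library totals ran from 36575730 to 52171378 counts. Between 73 and 81.9% of the values from 1 to 19 in a library were even, which leaves it possible that the mates of a read pair were counted apart. General adipocyte markers were abundant in all 12 libraries, with a summed level of 110600 to 129700 CPM (counts scaled by library size and TMM factor) over 25 genes in Runx2 knockout fat, 41700 to 108600 CPM in Runx2 flox controls, 62400 to 72340 CPM in Runx1 knockout fat and 53550 to 77570 CPM in Runx1 flox controls. Transcripts of other tissues varied between libraries. B cell markers, 17 of 18 genes measured, summed to 488 to 1110 CPM in Runx2 knockout fat and to 3285, 3322 and 550.4 CPM in its 3 controls, against 2333 to 2844 CPM in Runx1 knockout fat and 2528 to 3361 CPM in Runx1 flox controls. Skeletal muscle markers, summed over all 25 genes of the list, exceeded 5000 CPM in 4 libraries: Runx2 flox control 3, Runx1 knockout libraries 2 and 3, and Runx1 flox control 2. In bulk fat, fewer cells of a type and less RNA per cell cannot be told apart.

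One library stood apart from its label. Runx2 flox control 3 correlated with the Runx2 knockout libraries at a mean of 0.974, against 0.929 with the other controls of its own group (Pearson, log2 CPM), and its adipocyte sum was 108600 CPM where the other controls had 41700 and 45910 CPM. Results are therefore also given without it. It was singled out because it resembles the knockouts, so leaving it out widens the Runx2 effect through the choice itself. The Runx2 effect then called 6206 genes in place of 46, and the difference 4290 in place of 266. Calls in that setting are thus not separate support. Runx1 flox control 2 correlated at 0.972 with the Runx1 knockout libraries and at 0.968 with its own group.

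**Figure D1:**
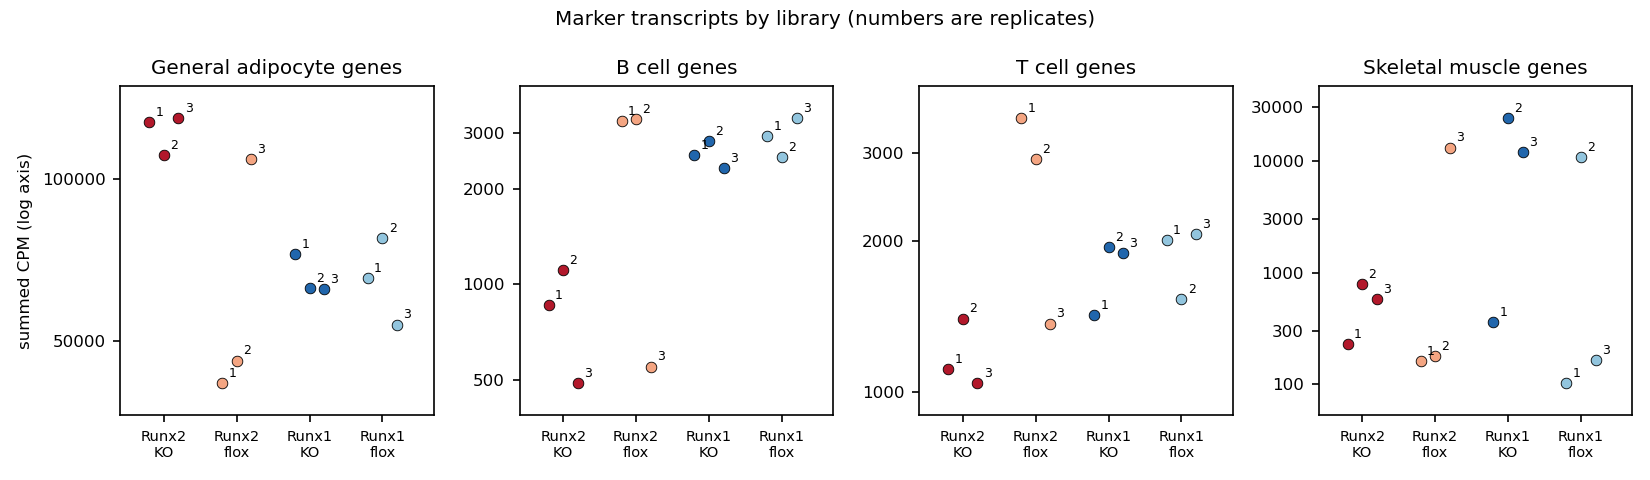
Summed CPM of 4 marker lists in each library (log axes; the number beside a point is its replicate). Runx2 flox control 3 lies with the Runx2 knockout libraries for adipocyte, B cell and T cell transcripts, and 4 libraries hold over 5000 CPM of skeletal muscle transcripts.

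The targeted genes were checked first. Runx2 had 3.98, 7.06 and 2.50 CPM in the Runx2 knockout libraries and 15.9, 10.9 and 4.33 CPM in the Runx2 flox controls, and 5.48, 6.99 and 7.36 CPM in the Runx1 knockout libraries and 12.5, 7.35 and 10.4 CPM in the Runx1 flox controls. The knockout libraries of Runx2 lay below all 3 controls in 2 of 3 cases, library 2 being above control 3, and the Runx2 knockout effect on Runx2 was -1.20 (adjusted p = 0.108). It was -1.54 (adjusted p = 0.00466) without Runx2 flox control 3, which passed, 0.067 (adjusted p = 0.991) without Runx2 flox controls 1 and 2, the 2 rich in B cell transcripts, and -0.32 (adjusted p = 0.625) with a B cell score as covariate. Leaving out controls 1 and 2 leaves control 3 as the single library of its group, which is then assumed to vary like the other groups, here and wherever that setting is given. Runx1 had 12.8, 12.5 and 9.38 CPM in the Runx2 knockout libraries and 36.8, 32.5 and 15.2 CPM in the Runx2 flox controls, and 19.8, 19.6 and 20.4 CPM in the Runx1 knockout libraries and 24.4, 27.5 and 41.5 CPM in the Runx1 flox controls. All 3 Runx1 knockout libraries lay below their controls, but the Runx1 knockout effect on Runx1 was -0.64 (adjusted p = 0.239), and -0.55 (adjusted p = 0.0442) with the B cell score. Runx1 was also below all controls in the Runx2 knockout libraries, at -1.29 (adjusted p = 0.0541). That value was -1.56 (adjusted p = 0.000172) without control 3, -0.39 (adjusted p = 0.806) without controls 1 and 2 and -0.68 (adjusted p = 0.111) with the B cell score. Neither gene was called different between the knockouts, with differences of -0.59 (SE 0.631, adjusted p = 0.598) for Runx2 and -0.64 (SE 0.414, adjusted p = 0.366) for Runx1, though without control 3 the difference of Runx1 was -0.93 (adjusted p = 0.0287). These are whole-tissue values, and lymphocytes, which keep both genes and express Runx1, varied between libraries as given above.

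At an adjusted p < 0.05 (edgeR quasi-likelihood test, Benjamini-Hochberg over all 15310 genes), 266 genes differed between the 2 knockout effects, 1.74% of those tested: 170 were higher (1.11%) and 96 lower (0.627%). Of these, 153 higher and 92 lower genes differed by at least 2-fold. At an unadjusted p under 0.05 the number was 3562, and DESeq2 called 1630. The median difference over all tested genes was -0.0283. In the same fit the Runx2 knockout effect alone called 46 genes (0.300%; 0.274% higher and 0.0261% lower) and the Runx1 knockout effect 414 (2.70%; 1.42% higher and 1.28% lower). The controls of the 2 tables differed in 49 genes (0.320%; 0.0980% higher and 0.222% lower in Runx2 flox fat), and the knockouts in 2935 (19.2%; 10.5% higher and 8.71% lower in Runx2 knockout fat); in both contrasts the table and the genotype cannot be told apart. Of the 170 higher genes 6 were among the 49 and 155 among the 2935, and of the 96 lower genes 2 and 86.

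Most of the 266 genes had effects of opposite sign in the 2 knockouts. Of the 170 higher genes, 165 had a positive Runx2 effect with a negative Runx1 effect, and of the 96 lower genes 85 had the reverse. The other 5 higher and 11 lower genes had effects of the same sign and unequal size. Over the 170 and the 96 genes, median effects were 0.73 for Runx2 loss and -0.83 for Runx1 loss in the higher genes, and -0.50 and 0.88 in the lower genes. In 113 of the 170, all 3 Runx2 knockout libraries lay above and all 3 Runx1 knockout libraries below their own controls, a pattern that 2.12% of all tested genes showed. The reverse was seen in 54 of the 96 lower genes and in 1.16% of all tested genes. Since the difference of the 2 effects chose these genes, the opposite signs describe them and are not a separate result.

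The Runx1 knockout contributed the larger effect in 102 of the 170 higher and 68 of the 96 lower genes. By itself the Runx1 effect was called in 81 and 58 of them and the Runx2 effect in 18 and 2, while 72 and 36 were called in neither. Il15ra, the interleukin-15 receptor alpha chain, was the only gene of the 15310 called in both effects with opposite signs, and 1 other gene was called higher in both. It had 114, 79.8 and 111 CPM in the Runx2 knockout libraries and 50.1, 44.6 and 60.5 CPM in the Runx2 flox controls, and 40.9, 42.3 and 47.1 CPM in the Runx1 knockout libraries and 70.2, 68.2 and 75.0 CPM in the Runx1 flox controls. The groups did not overlap within either table. Its Runx2 effect was 0.98 (adjusted p = 0.0439), its Runx1 effect -0.71 (adjusted p = 0.0384) and the difference 1.69 (SE 0.226, adjusted p = 0.0137). Across all 15310 genes the 2 effects correlated at Pearson's r = 0.00331 and Spearman's rho = 0.0856, and without Runx2 flox control 3 at 0.186 and 0.144 over 15476 genes. These are correlations across genes, which are not independent replicates. The 2 effects share no libraries, only the scaling and the estimate of the spread.

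**Figure D2:**
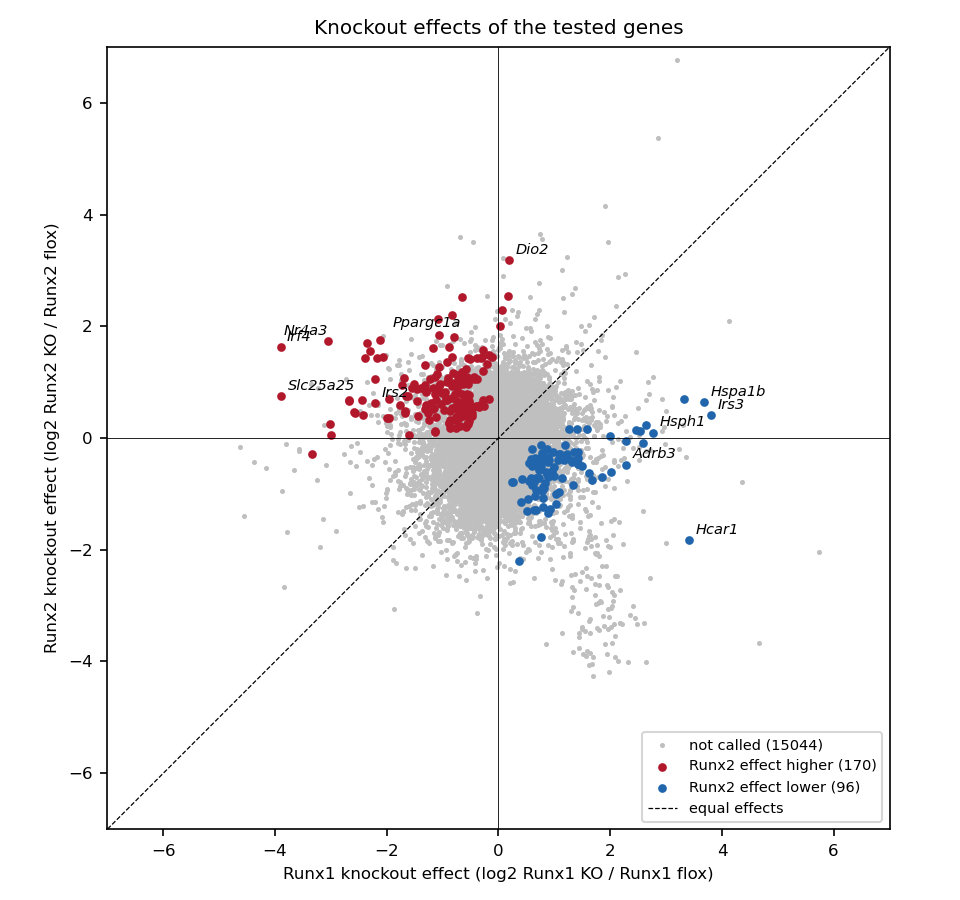
Runx2 knockout effect (vertical axis) against Runx1 knockout effect (horizontal axis), both log2, for 15310 tested genes, with 1 gene outside the axes. The 170 genes with the higher Runx2 effect (red) lie mostly at the upper left and the 96 with the lower one (blue) mostly at the lower right.

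The number of called genes rested on single libraries. It was 37, 161 and 3 without Runx2 knockout 1, 2 and 3, and 74, 48 and 4290 without Runx2 flox control 1, 2 and 3. It was 154, 4 and 74 without Runx1 knockout 1, 2 and 3, and 133, 49 and 201 without Runx1 flox control 1, 2 and 3. The sign of the difference stayed the same for all 266 genes in each of the 21 other settings tried, but the call did not. These genes were chosen by that difference in the same libraries, which the settings reuse. The constant sign therefore describes them and is not a separate result. Hcar1 and Hsph1 were among the 3 genes called without Runx2 knockout 3, and these and Ppargc1a among the 4 called without Runx1 knockout 2. Each other gene named here as called lost its call without Runx2 knockout 3 and again without Runx1 knockout 2. None of the genes named as called changed sign, but some uncalled ones did. The differences of Runx1 and Runx2 were -0.64 and -0.59 with all libraries. They were 0.25 and 0.68 without Runx2 flox controls 1 and 2, with control 3 alone in its group.

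**Figure D3:**
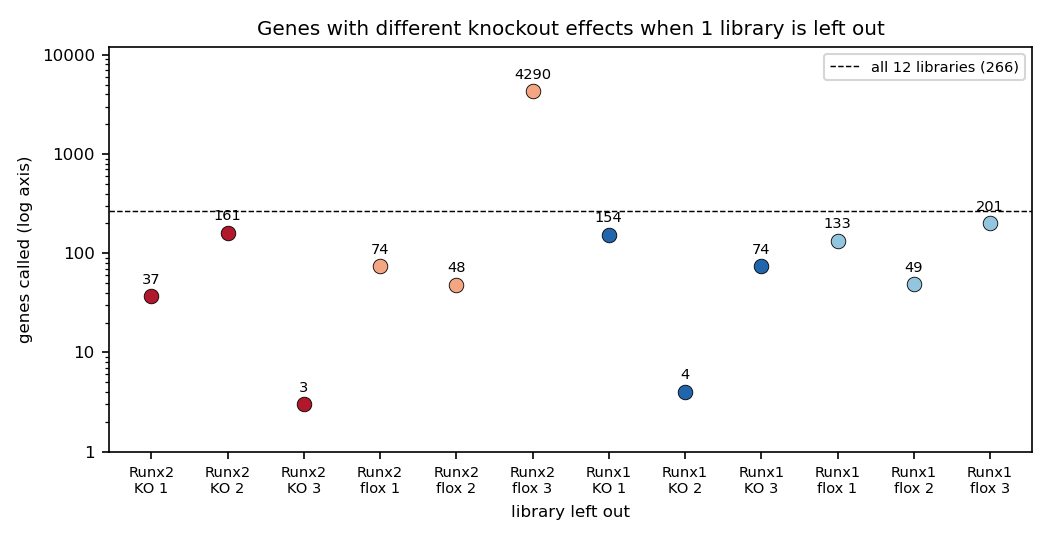
Number of genes called different between the knockout effects (log axis) when the library named on the horizontal axis was left out. The count ran from 3 without Runx2 knockout 3 to 4290 without Runx2 flox control 3, with 266 for all 12 libraries (dashed line).

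Among receptors, Hcar1 had the most negative difference of all genes named here. It had 14.9, 6.77 and 6.25 CPM in the Runx2 knockout libraries and 40.1, 24.96 and 34.0 CPM in the Runx2 flox controls, and 43.0, 67.9 and 31.8 CPM in the Runx1 knockout libraries and 5.30, 3.41 and 4.70 CPM in the Runx1 flox controls. The Runx2 knockout libraries lay below and the Runx1 knockout libraries above their controls, with no overlap in either table. The difference was -5.24 (SE 0.534, adjusted p = 0.00325), made of a Runx2 effect of -1.83 (adjusted p = 0.0519) and a Runx1 effect of 3.41 (adjusted p = 0.00224). Over the 21 other settings, the DESeq2 test among them, it ranged from -5.76 to -4.89, with adjusted p-values of 5.08e-19 to 0.0279. The controls of the 2 tables also differed in Hcar1, by 2.88 (Runx2 flox minus Runx1 flox, adjusted p = 0.011), and there the table and the floxed allele cannot be told apart.

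Adrb3, the main beta-adrenergic receptor of mouse adipocytes, had 111, 120 and 82.3 CPM in the Runx2 knockout libraries and 144, 106 and 186 CPM in the Runx2 flox controls, and 325, 231 and 148 CPM in the Runx1 knockout libraries and 50.4, 58.7 and 34.9 CPM in the Runx1 flox controls. Only the Runx1 table was separated, with knockout libraries above controls, and the Runx2 groups overlapped. Its difference was -2.77 (SE 0.429, adjusted p = 0.016), and -2.53 (adjusted p = 0.00185) without Runx2 flox control 3. Between the controls, Adrb3 differed by 1.60 (Runx2 flox minus Runx1 flox, adjusted p = 0.0509), which did not pass. Between the knockouts it differed by -1.17 (Runx2 minus Runx1, adjusted p = 0.0232). In both contrasts the table and the genotype cannot be told apart. Drd1, a dopamine receptor that couples to cAMP formation, chosen after its values were seen, had 9.07, 13.5 and 12.1 CPM in the Runx2 knockout libraries and 1.97, 2.19 and 6.24 CPM in the Runx2 flox controls, and 0.637, 0.244 and 0.516 CPM in the Runx1 knockout libraries and 2.47, 5.66 and 3.41 CPM in the Runx1 flox controls. It was scarce in all groups, separated upward in the Runx2 table and downward in the Runx1 table, and differed by 4.78 (SE 0.717, adjusted p = 0.016).

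Downstream of these receptors, the transcriptional coactivator Ppargc1a, which drives mitochondrial biogenesis and thermogenic genes, had 173, 138 and 193 CPM in the Runx2 knockout libraries and 40.2, 37.4 and 71.0 CPM in the Runx2 flox controls, and 20.8, 11.7 and 35.4 CPM in the Runx1 knockout libraries and 111, 96.2 and 88.9 CPM in the Runx1 flox controls. Runx2 knockout fat exceeded its controls in every library and Runx1 knockout fat fell short of its own in every library. The difference was 3.89 (SE 0.498, adjusted p = 0.0137), with a Runx2 effect of 1.76 (adjusted p = 0.0519) and a Runx1 effect of -2.13 (adjusted p = 0.0147). Without Runx2 knockout 3 it was 3.78 (adjusted p = 0.0642), and it was 3.37 (adjusted p = 0.0765) without Runx2 flox controls 1 and 2, with control 3 alone in its group. Irf4, a transcription factor that acts with PGC-1alpha in brown and beige fat and is also expressed in lymphocytes, had 2160, 1231 and 1402 CPM in the Runx2 knockout libraries and 274, 343 and 932 CPM in the Runx2 flox controls, and 39.9, 40.3 and 53.6 CPM in the Runx1 knockout libraries and 409.6, 1276 and 305 CPM in the Runx1 flox controls. The Runx2 groups and the Runx1 groups each separated, in opposite directions. Its difference was 5.53 (SE 0.812, adjusted p = 0.016), the highest among the genes named by the rule, and 4.68 (adjusted p = 0.11) without those 2 controls, again with control 3 alone. The median difference of 17 B cell genes was -1.29 with all libraries and 1.05 in that setting, and with the B cell score as covariate the difference of Irf4 was 5.10 (adjusted p = 0.0105).

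Slc25a25, a mitochondrial carrier that exchanges ATP-magnesium for phosphate, had 1101, 513 and 697 CPM in the Runx2 knockout libraries and 275, 311 and 782 CPM in the Runx2 flox controls, and 25.6, 27.0 and 34.2 CPM in the Runx1 knockout libraries and 187, 748 and 350.4 CPM in the Runx1 flox controls. The Runx1 knockout libraries were all far below their controls, and the Runx2 groups overlapped through control 3. The difference was 4.65 (SE 0.735, adjusted p = 0.016), with a Runx1 effect of -3.89 (adjusted p = 0.00922) and a Runx2 effect of 0.76 (adjusted p = 0.317). Nr4a3, an orphan nuclear receptor induced rapidly by cAMP signalling, had 575, 289 and 428 CPM in the Runx2 knockout libraries and 119.6, 91.0 and 186 CPM in the Runx2 flox controls, and 70.9, 40.9 and 119.7 CPM in the Runx1 knockout libraries and 494, 480.1 and 212 CPM in the Runx1 flox controls. Both tables separated, upward in Runx2 knockout and downward in Runx1 knockout. The difference was 4.06 (SE 0.629, adjusted p = 0.016). Dio2, which converts thyroxine to its active form, had 34.6, 115 and 93.3 CPM in the Runx2 knockout libraries and 6.73, 6.84 and 13.1 CPM in the Runx2 flox controls, and 26.4, 11.6 and 14.9 CPM in the Runx1 knockout libraries and 16.2, 14.5 and 15.5 CPM in the Runx1 flox controls. Here the Runx2 table carried the difference of 2.99 (SE 0.599, adjusted p = 0.0325): the Runx2 effect was 3.19 (adjusted p = 0.0282) and the Runx1 effect 0.20 (adjusted p = 0.823).

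Sik1 and Sik2, salt-inducible kinases inhibited by protein kinase A, and Pde4d, a cAMP phosphodiesterase, had differences of 3.05 (adjusted p = 0.027), 2.51 (adjusted p = 0.0419) and 2.62 (adjusted p = 0.0178). All 3 were chosen after their values were seen, so the shared direction says nothing of the cAMP pathway as a whole. Sik1 was 27.5, 19.3 and 35.9 CPM in Runx1 knockout fat against 88.2, 274 and 302 CPM in its controls, while its Runx2 effect was 0.048 (adjusted p = 0.944). Dusp8, a phosphatase of MAP kinases, differed by 3.36 (SE 0.533, adjusted p = 0.0161), and Arrdc3, an arrestin-like protein that binds beta-adrenergic receptors, by 3.34 (SE 0.614, adjusted p = 0.0242).

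**Figure D4:**
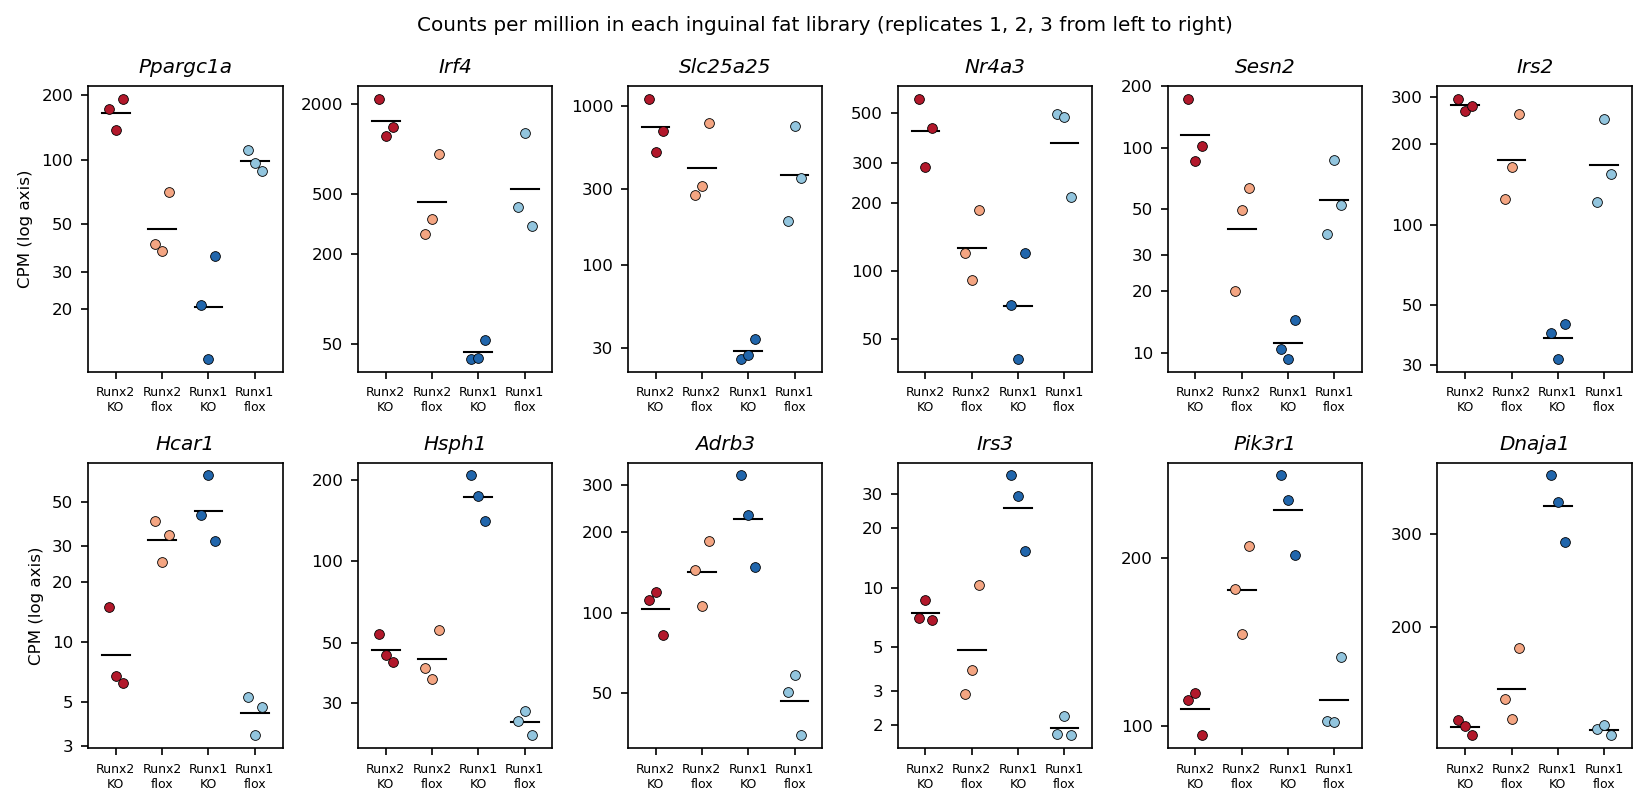
CPM of 12 genes in each library (log axes), in Runx2 knockout, Runx2 flox, Runx1 knockout and Runx1 flox fat; the line is the geometric mean of 3 libraries. The upper 6 genes have a positive and the lower 6 a negative difference. In the upper 6, Runx1 knockout libraries lie below all 9 others except for Nr4a3, where 1 of them reaches the Runx2 flox controls; in the lower 6 they lie above all 9 others except for Hcar1, Adrb3 and Pik3r1, where they overlap the Runx2 flox controls.

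Promoters were searched for the cAMP response element, TGACGTCA, which reads the same on both strands. Windows from 250 bases before to 50 after the start, from the RefSeq table of build GRCm38.p6, could be matched by symbol for 144 of the 170 higher genes, 80 of the 96 lower genes and 12061 of all tested genes; a gene with several windows counts once, if any of them holds the letters. The element was present in 10 of the higher genes (6.94%), 2 of the lower genes (2.50%), 3.28% of all tested genes and 1.79% of all 32851 windows. A match of letters is no sign that a factor binds there. The stretches before the start of 3 of the genes above are shown because they hold the element, in capitals, 5′ to 3′ on the strand of the gene; Dusp8 holds it at 2 places.
Slc25a25, chr2:32424184-32424241, minus strand: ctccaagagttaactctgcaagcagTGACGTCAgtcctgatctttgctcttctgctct
Dio2, chr12:90739101-90739158, minus strand: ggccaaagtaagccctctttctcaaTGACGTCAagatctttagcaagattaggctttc
Dusp8, chr7:142095315-142095416, minus strand: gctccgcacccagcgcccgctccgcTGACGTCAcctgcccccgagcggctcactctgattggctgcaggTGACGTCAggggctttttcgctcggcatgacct
The windows of Ppargc1a and Nr4a3 in the table did not hold these letters, which says nothing of other starts or of distant sites. The core RUNX motif TGTGGT, searched on both strands, was in 14.6% of the higher genes with a window, 12.5% of the lower genes and 15.4% of all tested genes.

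Of 20 thermogenic genes tested, 2 were called higher in the difference (Ppargc1a, Dio2), where 1.11% of all genes were, and 1 lower (Adrb3), where 0.627% were. The list had a median difference of 1.01 against -0.0283 over all genes, and a median of 1.69 in the Runx2 effect and 1.16 in the Runx1 effect. Without Runx2 flox control 3, where 15.4% of all genes were called higher and 12.4% lower, 6 were higher and 1 lower. Ucp1, the uncoupling protein, had 71.1, 642 and 492 CPM in the Runx2 knockout libraries and 5.51, 3.56 and 20.1 CPM in the Runx2 flox controls, and 155, 55.4 and 113 CPM in the Runx1 knockout libraries and 8.91, 20.8 and 15.2 CPM in the Runx1 flox controls. Each knockout lay wholly above its controls, and the difference was 2.52 (SE 1.15, adjusted p = 0.221); its effects were 5.37 (adjusted p = 0.0519) for Runx2 and 2.85 (adjusted p = 0.101) for Runx1. The lipid droplet protein Cidea showed the same layout, with a Runx2 effect of 2.89 (adjusted p = 0.0506), a Runx1 effect of 2.15 (adjusted p = 0.0515) and a difference of 0.74 (SE 0.71, adjusted p = 0.551). Elovl3, a fatty acid elongase of brown fat, had 1.18, 9.75 and 6.13 CPM in the Runx2 knockout libraries and 0.051, 0.045 and 0.052 CPM in the Runx2 flox controls, and 3.595, 2.65 and 4.54 CPM in the Runx1 knockout libraries and 0.295, 0.826 and 0.047 CPM in the Runx1 flox controls. Its control counts were too few for a fold, and its difference did not pass (adjusted p = 0.133). The standard errors of the difference for Ucp1 and Cidea are wide, so these values do not show that the knockouts act alike on them.

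Insulin signalling genes fell on both sides. Of 17 tested, Irs2 and Foxo1 were called higher, where 1.11% of all genes were, and Pik3r1 lower, where 0.627% were, with a median of 0.52. Irs2, the insulin receptor substrate induced by FOXO1 and cAMP, had 296, 267 and 279.6 CPM in the Runx2 knockout libraries and 125, 165 and 259 CPM in the Runx2 flox controls, and 39.4, 31.5 and 42.7 CPM in the Runx1 knockout libraries and 121, 250 and 155 CPM in the Runx1 flox controls. Runx1 knockout libraries lay far below their controls, and Runx2 knockout libraries lay above theirs, with control 3 close to them. Its difference was 2.83 (SE 0.414, adjusted p = 0.016) and its Runx1 effect -2.21 (adjusted p = 0.00673). Irs3, the substrate found in rodent adipocytes, differed the other way, by -3.40 (SE 0.62, adjusted p = 0.0242). It had 6.99, 8.68 and 6.88 CPM in the Runx2 knockout libraries and 2.88, 3.82 and 10.3 CPM in the Runx2 flox controls, and 37.2, 29.2 and 15.3 CPM in the Runx1 knockout libraries and 1.80, 2.23 and 1.78 CPM in the Runx1 flox controls. The Runx1 knockout libraries exceeded all others, and the Runx2 groups overlapped through control 3.

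Pik3r1, the regulatory subunit of the kinase that insulin receptor substrates recruit, had 111, 115 and 96.2 CPM in the Runx2 knockout libraries and 176, 146 and 210 CPM in the Runx2 flox controls, and 281, 254 and 203 CPM in the Runx1 knockout libraries and 102, 102 and 133 CPM in the Runx1 flox controls. It lay below its controls in Runx2 knockout fat and above them in Runx1 knockout fat, and differed by -1.86 (SE 0.262, adjusted p = 0.0157). Foxo1, the transcription factor that insulin excludes from the nucleus, had 379.6, 271 and 307 CPM in the Runx2 knockout libraries and 223, 251.3 and 289.8 CPM in the Runx2 flox controls, and 143, 122 and 132 CPM in the Runx1 knockout libraries and 229, 264 and 235 CPM in the Runx1 flox controls. It was lower in Runx1 knockout fat, without overlap, and its difference was 1.20 (SE 0.236, adjusted p = 0.0312). The receptor Insr itself was at 1.00 (adjusted p = 0.111) and Irs1 at 0.65 (adjusted p = 0.446), neither called. The list had 7 higher and 2 lower calls without Runx2 flox control 3 (all genes: 15.4% higher, 12.4% lower). It had 0 calls without Runx2 knockout 3 or without Runx1 knockout 2, where 3 and 4 of all genes were called.

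Genes induced by fasting, glucocorticoids and FOXO factors had positive differences in 19 of 20 cases, with a median difference of 1.43, from a median of 0.38 in the Runx2 effect and -1.15 in the Runx1 effect. One passed the test, where 1.11% of all genes were called higher: Pdk4, the kinase that shuts off pyruvate dehydrogenase. It had 1243, 1092 and 1075 CPM in the Runx2 knockout libraries and 183, 351 and 588 CPM in the Runx2 flox controls, and 99.5, 226 and 219 CPM in the Runx1 knockout libraries and 288, 622 and 309 CPM in the Runx1 flox controls. All Runx2 knockout libraries were above their controls and all Runx1 knockout libraries below theirs, and the difference was 2.77 (SE 0.614, adjusted p = 0.0453). Members that did not pass were Txnip, an inhibitor of glucose uptake, at 1.74 (adjusted p = 0.0573), Ddit4, an inhibitor of mTORC1, at 2.29 (adjusted p = 0.0616), Angptl4, an inhibitor of lipoprotein lipase, at 2.22 (adjusted p = 0.0596), and Per1, a clock gene induced by glucocorticoids, at 1.57 (adjusted p = 0.0504). Sesn3 was the member with a negative value, -0.90 (adjusted p = 0.257). Without Runx2 flox control 3 the list had 17 higher calls and 1 lower (all genes: 15.4% higher, 12.4% lower). Without the 4 libraries rich in muscle transcripts, which leaves Runx1 knockout 1 alone in its group, 5 were called higher, where 1.42% of all genes were. None passed without Runx2 flox controls 1 and 2, which leaves control 3 alone and where 0.385% of all genes were called.

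Further genes with a known link to fasting or stress were called outside that list. Sesn2, a sestrin that restrains mTORC1, had 173, 86.4 and 102 CPM in the Runx2 knockout libraries and 20.03, 49.8 and 63.9 CPM in the Runx2 flox controls, and 10.5, 9.33 and 14.4 CPM in the Runx1 knockout libraries and 38.2, 87.7 and 52.3 CPM in the Runx1 flox controls, with full separation in opposite directions and a difference of 3.82 (SE 0.603, adjusted p = 0.016). Pck1, the enzyme of glyceroneogenesis in adipocytes, had 7531, 8095 and 7625 CPM in the Runx2 knockout libraries and 2378, 2637 and 7080 CPM in the Runx2 flox controls, and 1000, 737 and 1006 CPM in the Runx1 knockout libraries and 2134, 4442 and 2461 CPM in the Runx1 flox controls. The Runx1 table separated downward and the Runx2 table upward, with control 3 close to the knockouts, and the difference was 2.66 (SE 0.566, adjusted p = 0.0404). Trp53inp1, a stress-induced gene of the p53 pathway chosen after its values were seen, differed by 2.13 (SE 0.274, adjusted p = 0.0137). Angptl8, a fat and liver hormone induced by feeding and insulin, rose with loss of Runx1, by 4.13 (adjusted p = 0.0118), with 60.7, 21.95 and 33.2 CPM in knockout libraries against 2.60, 3.04 and 0.935 CPM in controls; its difference of -2.04 (SE 0.85, adjusted p = 0.181) did not pass.

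Immediate early genes, which cells switch on within minutes of a stimulus, were positive in the difference in 15 of 17 cases, with a median of 1.31. In the Runx1 effect all 17 were negative, with 6 called lower, where 1.28% of all genes were, and a median of -1.20, and in the Runx2 effect the median was -0.024 with 8 positive. Nr4a3 and Klf4, a zinc finger factor, passed in the difference, where 1.11% of all genes were called higher, Klf4 at 1.69 (SE 0.362, adjusted p = 0.0414). Fos was 110, 37.0 and 41.0 CPM in Runx2 knockout fat, 48.1, 70.3 and 108 CPM in its controls, 19.0, 1.87 and 3.82 CPM in Runx1 knockout fat and 8.75, 27.6 and 37.1 CPM in its controls, with overlapping groups in both tables and a difference of 1.31 (SE 1.17, adjusted p = 0.525). Dusp1, a MAP kinase phosphatase, was lower in every Runx1 knockout library and was called in the Runx1 effect at -2.35 (adjusted p = 0.0173), while its difference was 1.93 (adjusted p = 0.0888). The count was 8 without Runx2 flox control 3, where 15.4% of all genes were called higher. It was 0 without Runx2 knockout 1, Runx2 knockout 3 or Runx1 knockout 2, where 37, 3 and 4 of all genes were called.

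Of 14 heat shock genes tested, 5 were called lower in the difference and none higher, where 0.627% of all genes were called lower. In the Runx1 effect 7 of the 14 were called, all upward, where 1.42% of all genes were, and in the Runx2 effect none, where 0.300% were. The median was -0.62 in the difference, 0.60 in the Runx2 effect and 0.89 in the Runx1 effect. Hsph1, the nucleotide exchange factor HSP110 that helps HSP70 refold proteins, had 54.1, 45.1 and 42.5 CPM in the Runx2 knockout libraries and 40.3, 36.8 and 55.5 CPM in the Runx2 flox controls, and 208, 174 and 141 CPM in the Runx1 knockout libraries and 25.7, 28.1 and 22.8 CPM in the Runx1 flox controls. The Runx1 knockout libraries lay above all 9 others, and the Runx2 groups overlapped. The difference was -2.68 (SE 0.269, adjusted p = 0.00325), the Runx1 effect 2.77 (adjusted p = 0.000133) and the Runx2 effect 0.096 (adjusted p = 0.75). The difference ranged from -3.00 to -2.46 over the 21 settings, the DESeq2 test among them, with adjusted p-values of 1.73e-15 to 0.0279.

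The inducible HSP70 gene Hspa1a had 4.85, 3.92 and 6.49 CPM in the Runx2 knockout libraries and 2.18, 2.33 and 4.93 CPM in the Runx2 flox controls, and 41.8, 28.7 and 26.2 CPM in the Runx1 knockout libraries and 3.09, 4.01 and 2.62 CPM in the Runx1 flox controls, and its near-identical neighbour Hspa1b, with which reads may be shared, differed by -3.03 (SE 0.577, adjusted p = 0.027). Runx1 knockout fat again stood apart, and the difference of Hspa1a was -2.62 (SE 0.476, adjusted p = 0.0242). Dnaja1, an HSP40 that delivers clients to HSP70, had 133, 129.6 and 125 CPM in the Runx2 knockout libraries and 146, 134 and 182 CPM in the Runx2 flox controls, and 388, 346 and 289.9 CPM in the Runx1 knockout libraries and 128, 130.2 and 124 CPM in the Runx1 flox controls and differed by -1.67 (SE 0.221, adjusted p = 0.0137). Its Runx2 knockout libraries lay just below their controls and its Runx1 knockout libraries far above theirs. Chordc1, a cochaperone of HSP90 and the fifth called member, differed by -1.60 (adjusted p = 0.027). Fkbp4 and Stip1, cochaperones of HSP90 outside the list, differed by -1.42 (adjusted p = 0.016) and -1.11 (adjusted p = 0.0178); these and Chordc1 were chosen after their values were seen. The chaperones Hspa8 at -0.23 (adjusted p = 0.613) and Hsp90aa1 at 0.32 (adjusted p = 0.507) did not pass, and Bag3 and Dnajb1, also heat-inducible, had positive values that did not pass, 1.11 (adjusted p = 0.118) and 0.83 (adjusted p = 0.302). The count of 5 was 2, 3 and 1 without Runx2 knockout 1, 2 and 3, and 3, 3 and 6 without Runx2 flox control 1, 2 and 3. It was 2, 1 and 4 without Runx1 knockout 1, 2 and 3, and 4, 2 and 4 without Runx1 flox control 1, 2 and 3. In the same order, the calls over all genes in either direction were 37, 161 and 3, then 74, 48 and 4290, then 154, 4 and 74, and last 133, 49 and 201. Without Runx2 flox control 3, where 12.4% of all genes were called lower, 2 members were also called higher.

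Heat shock factors bind alternating GAA and TTC blocks. A pair of blocks, TTCNNGAA or GAANNTTC, each of which reads the same on both strands, was in 18.8% of the lower genes with a window, 9.03% of the higher genes and 14.0% of all tested genes. A run of 3 blocks, each 2 bases from the next, searched on both strands, was in 2 lower genes (2.50%), Chordc1 and Hsph1, in none of the higher genes and in 0.589% of all tested genes, and each such run also counts as a pair. Stretches before the start of 3 called chaperone genes are shown because each holds a pair, in capitals, 5′ to 3′ on the strand of the gene (RefSeq, GRCm38.p6).
Hsph1, chr5:149636337-149636394, minus strand: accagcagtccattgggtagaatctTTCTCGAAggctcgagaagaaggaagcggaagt
Hspa1a, chr17:34972228-34972285, minus strand: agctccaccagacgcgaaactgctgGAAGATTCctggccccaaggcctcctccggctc
Dnaja1, chr4:40722319-40722376, plus strand: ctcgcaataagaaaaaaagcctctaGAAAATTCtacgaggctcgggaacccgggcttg

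The other genes among the 10 highest named by the rule were Fam222a, Enc1, an actin-binding kelch protein, and Tnfaip6, a secreted hyaluronan-binding protein. Fam222a had 43.4, 23.5 and 31.0 CPM in the Runx2 knockout libraries and 6.98, 9.24 and 17.0 CPM in the Runx2 flox controls, and 3.96, 2.44 and 5.396 CPM in the Runx1 knockout libraries and 15.4, 21.5 and 21.2 CPM in the Runx1 flox controls, separated in opposite directions, and differed by 3.86 (SE 0.522, adjusted p = 0.0137). Enc1 differed by 3.61 (adjusted p = 0.0196) and Tnfaip6 by 3.52 (adjusted p = 0.0288). On the lower side, Plekhh3 differed by -2.67 (adjusted p = 0.0233), the homeobox factor Six5 by -2.62 (adjusted p = 0.0242) and Tppp, a tubulin-binding protein, by -2.42 (adjusted p = 0.0325). Plekhh3 had 34.3, 27.4 and 25.7 CPM in Runx1 knockout fat against 5.71, 4.71 and 4.11 CPM in its controls, and in Tppp the Runx1 knockout libraries were likewise above all 9 others. Mid1ip1, an activator of acetyl-CoA carboxylase, was the called lipogenic gene, at -1.77 (SE 0.262, adjusted p = 0.016). The clock repressors Nr1d2 and Bhlhe41 differed in opposite directions, at 1.27 (adjusted p = 0.0398) and -2.35 (adjusted p = 0.0398).

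Lymphocyte transcripts had negative differences throughout. All 17 B cell and all 20 T cell genes tested had negative differences, with medians of -1.29 and -1.14, and none was called by edgeR. In edgeR 4 and 13 had an unadjusted p under 0.05, and DESeq2 called 0 and 9, all lower. Of all 15310 genes, 3562 had such a p-value and DESeq2 called 1630. The values came from the Runx2 table, where the median effects were -1.42 and -1.17, against -0.19 and -0.032 in the Runx1 table. Without Runx2 flox control 3, which held 550.4 CPM of B cell transcripts, 16 B cell and 18 T cell genes were called lower, where 12.4% of all genes were. Without Runx2 flox controls 1 and 2, which leaves control 3 alone and where 0.385% of all genes were called, none was, and the medians were 1.05 and -0.26. T cell markers summed to 1041 to 1400 CPM in Runx2 knockout fat, 1368 to 3518 CPM in its controls, 1422 to 1945 CPM in Runx1 knockout fat and 1529 to 2061 CPM in its controls. Called genes of that kind in all 12 libraries were Ltb, the cytokine lymphotoxin beta, at -2.20 (SE 0.468, adjusted p = 0.0404), Mir142b, a microRNA gene at a locus expressed in blood cells, at -2.53 (SE 0.542, adjusted p = 0.0414), and, chosen after their values were seen, the lymphocyte receptor Cd27 at -1.97 (adjusted p = 0.0453) and the T cell factor Tbx21 at -1.89 (adjusted p = 0.0398). Both tables entered these differences. Tbx21 was called in the Runx1 effect, at 1.42 (adjusted p = 0.0264), with a Runx2 effect of -0.47 (adjusted p = 0.278). Ltb, Mir142b and Cd27 had Runx1 effects of 0.93, 0.76 and 0.68 and Runx2 effects of -1.27, -1.78 and -1.30, none called. Ltb had 66.2, 99.1 and 64.1 CPM in the Runx2 knockout libraries and 275, 181 and 97.5 CPM in the Runx2 flox controls, and 226, 329 and 245 CPM in the Runx1 knockout libraries and 124, 118 and 178 CPM in the Runx1 flox controls, with Runx1 knockout libraries above their controls and the Runx2 groups overlapping through control 3. In that setting the difference of Ltb was -1.27 (adjusted p = 0.132) and that of Mir142b -1.75 (adjusted p = 0.134).

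Vessel and matrix genes mostly had positive differences. Of 20 endothelial genes 18 were positive, with a median of 0.92, and 1 was called, where 1.11% of all genes were called higher: Kdr, the main receptor of VEGF, had 317, 300.1 and 372 CPM in the Runx2 knockout libraries and 126, 161 and 276 CPM in the Runx2 flox controls, and 122, 71.3 and 93.6 CPM in the Runx1 knockout libraries and 176, 227 and 177 CPM in the Runx1 flox controls and differed by 1.83 (SE 0.393, adjusted p = 0.0414). Its groups separated upward in the Runx2 table and downward in the Runx1 table. Summed endothelial transcripts ran from 3463 to 4715 CPM in Runx2 knockout fat, 2208 to 4725 CPM in its controls, 1411 to 1975 CPM in Runx1 knockout fat and 2111 to 3142 CPM in its controls. Of 38 matrix genes 35 were positive, with a median of 0.81, and Thbs1, thrombospondin 1, was called at 2.36 (SE 0.447, adjusted p = 0.027). Postn, periostin, was at 2.11 (adjusted p = 0.0573) and Col1a1 at 0.65 (adjusted p = 0.367). The calls were, without Runx2 flox control 3, 13 higher and 1 lower for endothelial genes and 20 higher for matrix genes (all genes: 15.4% higher, 12.4% lower).

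Oxidative genes had mostly positive differences without a call. All 22 genes of the citric acid cycle, 21 of 23 of fatty acid oxidation and 48 of 71 of the respiratory chain were positive, with medians of 0.59, 0.60 and 0.12. At an unadjusted p under 0.05 edgeR had 6, 9 and 3 of them, and DESeq2 called 2, 4 and 0. Of all 15310 genes, edgeR had 3562 at that level and DESeq2 called 1630. The lists' medians were 0.96, 1.08 and 0.60 in the Runx2 effect and 0.42, 0.48 and 0.45 in the Runx1 effect; of single genes, 1 and 3 of the first 2 lists were called higher in the Runx2 effect, where 0.274% of all genes were, and none in the Runx1 effect. Acot5, a peroxisomal acyl-CoA thioesterase, had 6.71, 23.6 and 24.0 CPM in the Runx2 knockout libraries and 0.961, 1.12 and 2.52 CPM in the Runx2 flox controls, and 16.7, 11.2 and 12.1 CPM in the Runx1 knockout libraries and 6.19, 9.27 and 7.76 CPM in the Runx1 flox controls. All knockout libraries of both tables lay above their controls, the Runx2 effect was 3.56 (adjusted p = 0.0282) and the difference, 2.78 (SE 0.654, adjusted p = 0.0545), did not pass. Gk, which phosphorylates glycerol, and Slc27a2, a fatty acid transporter with acyl-CoA synthetase activity, rose with loss of Runx2, by 3.24 (adjusted p = 0.033) and 4.15 (adjusted p = 0.033), and had differences of 2.01 (adjusted p = 0.113) and 2.25 (adjusted p = 0.133). Without Runx2 flox control 3 the difference called 20, 19 and 14 genes of the 3 lists, all upward, where 15.4% of all genes were, and without Runx2 flox controls 1 and 2, with control 3 alone, the medians were 0.084, 0.050 and -0.33 with no call. General adipocyte genes had a median of 0.65, with Pck1 higher and Adrb3 lower. Adipoq was at 0.87 (adjusted p = 0.298), Plin1 at 1.07 (adjusted p = 0.211), Pparg at 0.25 (adjusted p = 0.768) and Lep at -2.18 (adjusted p = 0.166). Without control 3, 19 of the 25 were called higher and 1 lower (all genes: 15.4% higher, 12.4% lower). Within the Runx2 table, fat markers and oxidative genes were high and lymphocyte transcripts low in the same libraries, the knockouts and control 3. In the Runx1 knockouts, respiratory chain transcripts summed to 16650 to 17700 CPM, against 16320 CPM in that control, with B cell sums of 2333 to 2844 CPM. Citric acid cycle sums were 6957 to 8072 CPM against 6285 CPM, and fatty acid oxidation sums 7385 to 9813 CPM against 8994 CPM. Their general adipocyte sums were 62400 to 72340 CPM, against 108600 CPM in control 3. The part of this mixture in the results was not tested.

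**Figure D5:**
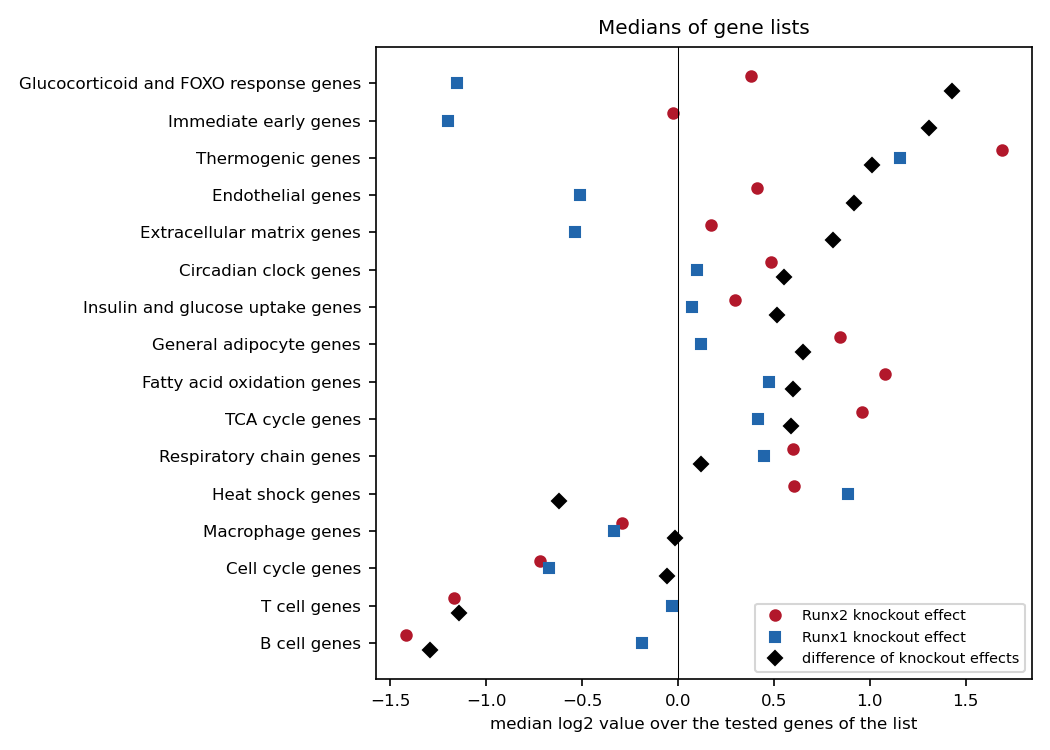
Median log2 value over the tested genes of 16 gene lists, for the Runx2 knockout effect (circles), the Runx1 knockout effect (squares) and their difference (diamonds). Glucocorticoid and FOXO response genes and immediate early genes have the highest medians of the difference, 1.43 and 1.31, and B cell genes the lowest shown, -1.29.

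In the remaining lists the calls were single genes, where 1.74% of all genes were called. Tle1, a corepressor that binds RUNX proteins, was the called member of 15 Runx genes and partners, at 1.78 (SE 0.304, adjusted p = 0.0196). Alpl, tissue-nonspecific alkaline phosphatase, was called in the creatine cycling and osteochondrogenic lists, at 2.28 (SE 0.515, adjusted p = 0.0476). Mvd, of sterol synthesis, was at -1.40 (adjusted p = 0.0394), and Ankrd37, a hypoxia-induced gene, at -2.56 (adjusted p = 0.0476). In 19 of the lists, those of lymphocyte, oxidative and muscle genes among them, edgeR called none of the 395 genes tested. Of these, 76 had an unadjusted p under 0.05 in edgeR and 34 were called by DESeq2. Over all 15310 genes the numbers were 3562 and 1630, which are larger shares. These lists include 28 interferon, 28 cell cycle, 24 macrophage, 20 inflammatory, 19 unfolded protein and 18 stromal progenitor genes. The 24 skeletal muscle genes had a median of -5.31 and a median of -0.0083 without Runx2 flox control 3.

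The 266 genes were then read in other samples of the series. A separate table held inguinal fat of Runx1 knockouts and WT controls labelled HFD, 3 libraries each, for which the labels name no Cre. There, 105 of the 170 higher genes and 54 of the 96 lower genes had positive Runx1 effects, against 7300 of 14519 genes tested, and 0 and 3 were called, where 2.18% of all genes were. In the fat above, the median Runx1 effect was -0.83 in the higher and 0.88 in the lower genes. A positive HFD effect is thus the opposite sign for most higher genes and the same sign for most lower genes. The 3 called genes were all lower in these knockouts, where 6 of all genes were called higher and 311 lower. Among them were Ltb, at -4.69 (SE 0.48, adjusted p = 0.000466), and Cd27, at -2.92 (SE 0.661, adjusted p = 0.0481). Their Runx1 effects in the fat above were 0.93 (adjusted p = 0.141) and 0.68 (adjusted p = 0.236). Hsph1 was at -0.14 (SE 0.326, adjusted p = 0.9902) in that table, Hcar1 at -0.05 (SE 0.319, adjusted p = 0.9995), Irf4 at -0.68 (SE 0.444, adjusted p = 0.8486) and Ppargc1a at -0.0062 (SE 0.455, adjusted p = 0.9999), none of them called. Whether the HFD effects differ from those in the other fat was not tested here. In cultured brown adipocytes of the line labelled BAT, Runx2 knockouts minus Runx1 knockouts, compared directly, were positive in 87 of 158 higher and 31 of 89 lower genes, against 6694 of 12891 tested, and none of them was called, where 0.0155% of all genes were. Overexpression of Runx2 minus that of Runx1 in culture was positive in 101 of 165 higher and 34 of 94 lower genes, against 6549 of 13620 tested. There 54 of the 165 were called higher and 36 lower, and 9 of the 94 higher and 22 lower, where 41.3% of all genes were called in either direction.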

How the data were processed

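RNA-seq counts per gene were taken as deposited in one table for each experiment; per the submitters' processing notes, fastp, STAR and featureCounts were used with mm39, with versions, strand setting and filters not given in the sources used here. The 12 libraries of the Runx2 and the Runx1 tables were joined by gene symbol. Genes passing filterByExpr in each table by itself were fitted together with edgeR 4.0.16 (R 4.3.3, TMM scaling, robust quasi-likelihood, 1 coefficient for each of 4 groups, 8 residual degrees of freedom). All adjusted p-values are from this test with Benjamini-Hochberg adjustment over all tested genes, with a threshold of 0.05, and log2 values are differences of fitted group means. The script was tested on simulated data. Alternatives were DESeq2 1.42.0, other scaling and filters, a replicate block, marker scores as covariates, each table alone, and leaving out libraries; leaving out the 4 muscle-rich libraries, and the 2 Runx2 flox controls rich in B cell transcripts, was chosen after seeing the data.

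The genes and lists were chosen with earlier results of these data known. Named by rule were 18 fixed genes, the 10 called genes highest and the 10 lowest in the difference at a mean of at least 5 CPM (predicted genes, antigen receptor segments and ribosomal pseudogenes left out), up to 3 called members of each list in each direction, genes called in both effects with opposite signs, and the 4 called genes highest and lowest in each effect; not all of these are described. Sik1, Sik2, Pde4d, Drd1, Fkbp4, Stip1, Chordc1, Trp53inp1, Tbx21 and Cd27 were chosen after their values were seen, as were the uncalled list members given as examples. Hspa1a and Hspa1b are near-identical, and Mir142b overlaps other transcripts, so their counts are uncertain. Promoter windows came from RefSeq (GRCm38.p6), and no coordinate was moved between builds.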

Additional observations from a re-analysis of the deposited data

Results flagged for a closer look

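The effects of the same contrast, knockout against floxed control, differed between the Runx2 and the Runx1 experiment in 266 genes by the test of the difference itself. Among single genes, the difference was -5.24 for Hcar1 and -2.68 for Hsph1, both called under all 21 alternatives, and 1.69 for Il15ra, the gene called in both knockout effects with opposite signs that the rule for named genes picked out. The part played in these differences by the uneven B cell, skeletal muscle and adipocyte transcripts of the libraries was not tested.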

How the results depend on the processing

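The 266 genes of the difference of knockout effects became 1630 with DESeq2, 776 with a B cell score and 874 with a skeletal muscle score as covariate, and 60 without the 2 Runx2 flox controls rich in B cell transcripts, which leaves 1 library in that group; they stayed within 1.5 times under DESeq2 size factors, no count filter, scaling within each table and without the 4 muscle-rich libraries, which leaves 1 Runx1 knockout (239 to 363). A similar number of calls need not mean the same genes. All 266 kept the call under DESeq2 size factors, 238 with no count filter and 233 with scaling within each table. Without the 4 muscle-rich libraries most of the 266 lost the call, so only the number was similar there. Leaving out 1 library gave 3 (without Runx2 knockout 3) to 4290 (without Runx2 flox control 3). The 46 genes of the Runx2 knockout effect became 2874 with DESeq2, 153 with no count filter, 14 with scaling within each table, 2405 with the muscle score, 5813 without the 4 muscle-rich libraries, 3 without the 2 B cell-rich controls, 0 by edgeR on its own table alone (3206 at an unadjusted p under 0.05), and 0 (without Runx2 flox control 1; 2417 unadjusted) to 6206 (without Runx2 flox control 3). The 414 genes of the Runx1 knockout effect became 1540 with DESeq2, 2080 with the B cell score, 183 with the muscle score, 122 without the 4 muscle-rich libraries, 1530 without the 2 B cell-rich controls, 1189 on its own table alone, and 22 (without Runx1 knockout 2) to 1739 (without Runx2 flox control 3). The 49 genes between controls became 965 with DESeq2 and 0 (without Runx1 flox control 1; 1552 unadjusted) to 1221 (without Runx2 flox control 3), and the 2935 between knockouts 661 to 5244. With the replicate number as a block, the counts were 6 for the difference, 433 for the Runx2 effect and 90 for the Runx1 effect. Of the 53 named genes called in the difference, 49 then lost the call. In deviations from group means, same-numbered libraries correlated at -0.0713, 0.321 and 0.47 in the Runx2 table and 0.314, 0.406 and -0.235 in the Runx1 table. Knockout and control libraries of different number correlated at -0.537 to 0.325. The labels do not say what a number marks, and not every library correlated best with its own number. The numbers were not taken to pair the libraries, a choice that these values do not settle. The causes of these changes were not tested.

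Of 107 values of single genes, 0 changed sign under any setting; the 103 that were called kept the call in 1475 cases and lost it in 688, and the 4 that were not stayed so in 77 and gained a call in 7. The called values were chosen in these same libraries, so their constant sign is not a separate result. Leaving out a library changes both the number of libraries and the estimate of the spread, and with 3 libraries a group the counts of calls rest on single libraries.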
